A study of Homo sapiens with 18 samples.

Results

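The keratin genes were the 55 of 40266 gene symbols in the deposited expression table that consist of KRT, a number and at most 1 letter from A to C. They comprised 29 type I and 26 type II keratins, and keratin pseudogenes, antisense transcripts and keratin-associated proteins were not among them. Levels are given as TPM, a gene's share of all transcripts of a library after correction for transcript length, so that different keratins may be set side by side. Of the 55 keratins, 19 reached at least 1 TPM in at least 3 of the 18 libraries and entered the test. The other 36 remained below this level, 6 of them listed at 0 in every library, and the highest single value among the 36 was 1.35 TPM, for KRT34.

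RNA sequencing covered 2 human pancreatic ductal adenocarcinoma (PDAC) cell lines. Panc1 comes from a primary tumor and served as the mesenchymal-like model, and Panc89 comes from a lymph node metastasis and served as the epithelial model. Each line was present as parental cells, as Holoclone cells and as Paraclone cells, with 3 libraries per group, made from RNA of different cell passages. Holoclone cells stand for cancer stem cells (CSCs) and Paraclone cells for non-CSCs by the shape of their colonies, and each of these 4 cell lines was expanded from 1 single cell. A difference between Holoclone and Paraclone cells therefore compares 1 clone with another, and passages of the same clone were the replicates, so that p-values measure the spread between these passages. The sources name neither a transgene nor a drug for any group, and the same culture medium for all.

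Keratins are the intermediate filament proteins of epithelial cells. A keratin filament is an obligate heteropolymer in which a type I chain pairs with a type II chain, so that epithelia express these genes in pairs. KRT8 with KRT18 is the primary pair of simple epithelia, to which ductal epithelium such as that of the pancreas adds KRT7 and KRT19. KRT5 with KRT14 is the pair of basal cells in stratified epithelium, KRT6, KRT16 and KRT17 are induced in wounded or activated epithelium, and KRT81 to KRT86 are hard keratins known from the hair shaft.

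Several keratin genes are near-identical copies, so reads may be divided between relatives. The sequences below show differences of the KRT81 and KRT6A transcripts from their closest expressed or neighboring copies. Each set was chosen as the 60 coding bases with the most differences between its upper gene and the gene printed below it. The stretches are thus more divergent than the coding sequence as a whole. In the first set, capitals mark the 7 of 60 positions at which the 3 hair keratins are not all alike, written 5′ to 3′ on the strand of the gene, from GRCh38. The KRT81 stretch is coding sequence in exon 5 (chr12:52288011-52288070, minus strand), that of KRT86 lies in exon 7 (chr12:52305318-52305377, plus strand) and that of KRT83 in exon 5 (chr12:52316886-52316945, minus strand), with exons counted in the canonical transcript. KRT86 differed from KRT81 at 5 of these positions and KRT83 at 6.
KRT81: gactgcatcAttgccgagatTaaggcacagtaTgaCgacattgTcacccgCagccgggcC
KRT86: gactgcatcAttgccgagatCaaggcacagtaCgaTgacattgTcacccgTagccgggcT
KRT83: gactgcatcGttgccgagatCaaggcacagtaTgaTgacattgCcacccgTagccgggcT

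The second set shows exon 2 of the KRT6 genes, all on the minus strand, for KRT6A (chr12:52491555-52491614), KRT6B (chr12:52450439-52450498) and KRT6C (chr12:52472099-52472158). Capitals mark the 9 of 60 positions that are not the same in all of them. KRT6B differed from KRT6A at 9 and KRT6C from KRT6A at 5.
KRT6A: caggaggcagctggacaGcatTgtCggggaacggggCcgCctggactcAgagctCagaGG
KRT6B: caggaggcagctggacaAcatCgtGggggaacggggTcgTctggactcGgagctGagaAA
KRT6C: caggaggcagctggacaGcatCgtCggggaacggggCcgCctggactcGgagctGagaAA

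Over the 7 of 9 coding exons of equal length, KRT86 differed from KRT81 at 27 of 910 bases (97.0% identical). Over all 9 coding exons, KRT6C differed from KRT6A at 35 of 1692 bases and KRT6B at 42. Of the stretches of 31 bases in the canonical KRT81 transcript, 46.8% occurred in no transcript of another gene on either strand, and 43.2% were shared with KRT86. The unshared part was 47.3% for KRT6A, 42.2% for KRT6B, 38.9% for KRT6C, 60.2% for KRT17 and 60.9% for KRT16. KRT8 with 38.9% and KRT18 with 25.2% share sequence with many processed pseudogenes. Of the KRT18 stretches, 24.95% also occurred in transcripts of KRT8, on either strand. By contrast, KRT7 (84.5%), KRT19 (88.6%), KRT23 (93.9%), KRT15 (94.6%), KRT10 (98.3%) and KRT80 (98.5%) were largely unique. Values of KRT6B, KRT6C, KRT14, KRT16 and KRT86 are uncertain in this respect, since a small share of reads from an abundant relative would suffice to change them. KRT81 (chr12:52285913-52291534, minus strand) lies inside an intron of KRT86 (chr12:52249300-52309163, plus strand), and the KRT8 and KRT18 loci overlap head to head.

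Each library held between 12932 and 14199 genes at 1 TPM or more, and the files give no read counts, so that the depth behind each value is unknown. No 2 libraries held identical values, and Pearson's r across genes within a group ran from 0.954 to 0.992. EPCAM and CDH1, genes of epithelial cell adhesion, and VIM, the intermediate filament of mesenchymal cells, fitted the names of the lines: VIM averaged 3779 TPM in parental Panc1 and 0.0653 TPM in parental Panc89 cells, and CDH1 1.35 and 75.3 TPM. Of 6 fibroblast markers, 3 reached 1 TPM in at least 1 library, COL1A2, COL3A1 and DCN did not, and the sum ranged from 12.8 to 14.9 TPM in parental Panc1 and from 20.6 to 27.3 TPM in parental Panc89 libraries. Its part in the differences between the lines was not tested. Of the leukocyte markers, CD68 reached 1 TPM or more, while PTPRC and CD3E remained below 1 TPM in every library. One library stood apart in the keratins: Panc1 parental replicate 2 held 5084 keratin TPM in total, and the other replicates of its group 2764 and 3019 TPM. Without it, the mean of this group was 2892 TPM.

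Keratin transcripts were more abundant in Panc89 than in Panc1 cells. Their summed level was 3622 ± 1272 TPM (SD, n = 3) in parental Panc1 cells, 3107 ± 611 TPM in Panc1 Holoclone and 3171 ± 762 TPM in Panc1 Paraclone cells. In Panc89, it amounted to 6591 ± 481 TPM in parental, 5535 ± 468 TPM in Holoclone and 8140.0 ± 1307 TPM in Paraclone cells. Except for Panc1 parental replicate 2, whose 5084 TPM lay just above the lowest Panc89 library at 5041 TPM, every Panc1 library was below every Panc89 library. In bulk RNA, fewer cells expressing a gene and less RNA per cell cannot be told apart.

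The lines drew on different sets of keratins. KRT8, KRT18, KRT19 and the other simple epithelial keratins made up 97.1% to 97.8% of all keratin TPM in the 3 Panc1 groups, on average, and 71.6% to 74.1% in the Panc89 groups. A group mean of at least 1 TPM was reached by 9, 7 and 9 keratins in parental, Holoclone and Paraclone Panc1 cells, and by 18, 16 and 18 in the corresponding Panc89 cells. In parental Panc1 cells, KRT18 supplied 41.3%, KRT8 38.7% and KRT19 17.5% of keratin TPM. In parental Panc89 cells, KRT7 led with 25.5%, followed by KRT19 (19.8%), KRT18 (16.8%), KRT17 (11.7%), KRT8 (11.6%) and KRT81 (9.59%). KRT17 and KRT8 did not differ beyond their spread in this order.

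The balance of type I to type II transcripts differed between the clones, and in opposite directions in the 2 lines. In Panc1, Holoclone cells had 1.21 ± 0.140 type I per type II TPM (SD, n = 3) and Paraclone cells 2.76 ± 0.528, with 1.501 ± 0.0406 in parental cells. In Panc89, it was 2.14 ± 0.227 in Holoclone and 0.756 ± 0.0133 in Paraclone cells, with 0.999 ± 0.0793 in parental cells. The libraries of the 2 clones did not overlap in either line, and with 3 libraries against 3 an exact permutation test cannot go below p = 0.1. Single abundant genes weigh on this ratio, so that it does not describe the family as a whole. In Panc1 Holoclone and Paraclone cells, KRT19 held 7.12% and 39.3% of keratin TPM and KRT8 43.9% and 25.9%. The type I keratin KRT18 went the other way, with 45.8% and 31.8%. In Panc89, KRT81 held 0.00303% and 11.9%, and KRT18 again went the other way, with 13.2% and 16.7%. The ratio of KRT8 to KRT18, the classical pair, had group means between 0.575 and 0.963. Single libraries spread more widely, with Panc89 Holoclone replicate 3 lowest (0.470) and Panc1 Holoclone replicate 2 highest (1.10). This ratio was higher in Panc1 libraries, and the lines overlapped only because Panc1 Paraclone replicate 3 (0.743) lay just below Panc89 Holoclone replicate 1 (0.745). The line difference in this ratio was not tested.

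**Figure D1:**
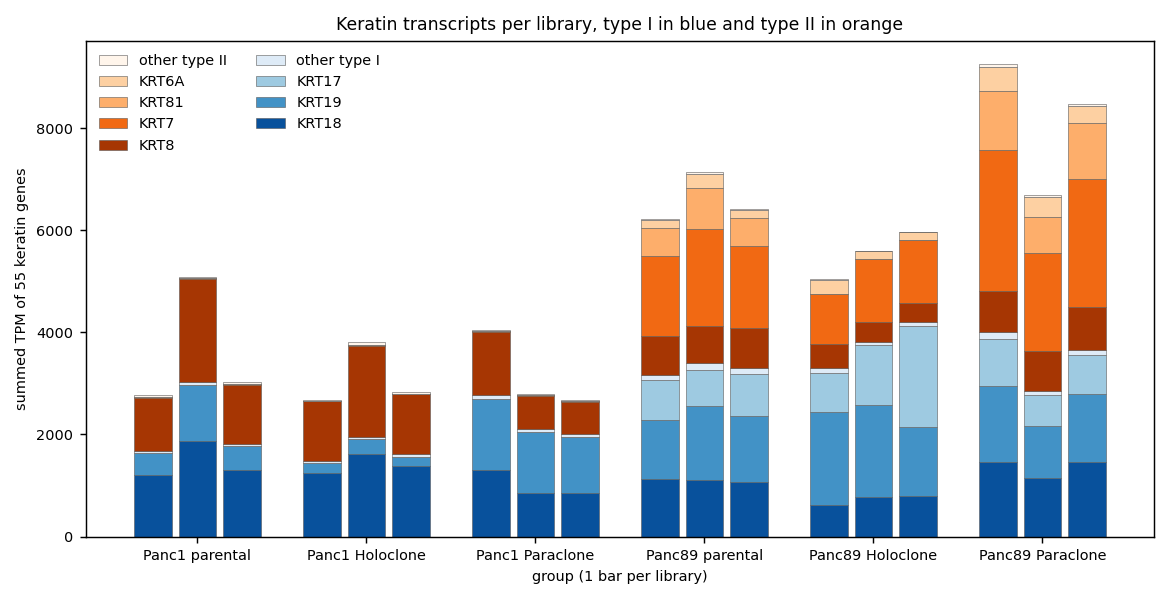
Summed TPM of the 55 keratin genes in each of the 18 libraries, stacked by gene, with type I keratins in blue and type II keratins in orange. Panc1 libraries consist almost entirely of KRT8, KRT18 and KRT19, whereas Panc89 libraries add KRT7, KRT17 and KRT6A, and KRT81 is visible in Panc89 parental and Paraclone but not in Panc89 Holoclone libraries.

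The first question was in which keratins the 2 lines differed. Of the 19 keratins tested, 13 were higher and 2 lower in parental Panc89 than in parental Panc1 cells, where 27.5% of all 16093 genes tested were higher and 38.5% lower (66.0% in all). Between the Holoclones, 13 were higher and 5 lower in Panc89 (29.3% and 36.4% of all genes, 65.8% in all), and between the Paraclones 12 were higher and 0 lower (30.2% and 30.4%, 60.7% in all). For the Paraclones, 13 of the 19 had an unadjusted p under 0.05 in limma, and the share of all genes at this threshold was not determined. In these counts, 10 keratins (KRT4, KRT5, KRT6A, KRT6B, KRT6C, KRT13, KRT14, KRT16, KRT17 and KRT23) passed the filter on low values only through Panc89, so that a difference between the lines was built in. Of the 9 keratins that both lines brought past the filter, 3 were higher and 2 lower in parental Panc89 cells, 4 higher and 5 lower in the Holoclone, and 3 higher and 0 lower in the Paraclone. The median log2 difference of these 9 was 0.45, -0.57 and 0.44 for parental, Holoclone and Paraclone cells, and that of all genes -0.18, -0.11 and 0.00. Between the Holoclones, the calls of KRT5, KRT10, KRT15, KRT81 and KRT86 were lost without Panc89 Holoclone replicate 1, which left 13 of the 18.

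Among the simple epithelial keratins, KRT7, a type II keratin of glandular and ductal cells, separated the lines most. It measured 13.05, 9.75 and 12.9 TPM in the parental Panc1 libraries and 1555, 1894 and 1608 TPM in the parental Panc89 libraries. No Panc1 library came near any Panc89 library, and the ratio of the group means was 142 (log2 fold change 7.04, SE 0.23, adjusted p = 5.89e-13). Fold changes here and below are on the scale of log2(TPM + 1), which understates the change of genes with low values. The KRT7 difference was 6.63 between the Holoclones and 7.28 between the Paraclones. The antisense transcript KRT7-AS, which shares sequence with KRT7, did not exceed 0.125 TPM in any library.

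KRT8, the type II partner of KRT18, was abundant in all 6 groups. Its levels were 1043, 2029 and 1161 TPM in parental Panc1 and 775, 729 and 781 TPM in parental Panc89 libraries. The Panc89 values lay close together and below all Panc1 values (log2 fold change -0.83, SE 0.26, adjusted p = 0.0110), but without Panc1 parental replicate 2 the difference was -0.53 with an adjusted p of 0.0713. It was also not past the threshold when libraries were rescaled by the median of ratios (-0.58, adjusted p = 0.0548) or the upper quartile (-0.53, adjusted p = 0.0745). Between the Holoclones, KRT8 was lower in Panc89 (log2 difference -1.71, adjusted p = 2.74e-05), and the Paraclones gave a difference of 0.02 (95% interval -0.54 to 0.57, adjusted p = 0.965).

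KRT18, the type I partner, measured 1211, 1879.9 and 1298 TPM in parental Panc1 and 1131, 1102 and 1077 TPM in parental Panc89 libraries. Its line difference passed the threshold in the Holoclones alone (-0.95, adjusted p = 3.76e-04), with -0.38 in parental cells (adjusted p = 0.0900) and 0.44 in the Paraclones (adjusted p = 0.0550).

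KRT19, a type I keratin of ducts without a tail domain, measured 422, 1097 and 469 TPM in parental Panc1 and 1160.4, 1462 and 1294 TPM in parental Panc89 libraries. Panc1 parental replicate 2 again stood above its group, and all Panc89 values were higher (log2 fold change 1.11, SE 0.29, adjusted p = 0.00289). The line difference was 2.90 between the Holoclones (adjusted p = 2.47e-07) and 0.05 between the Paraclones (95% interval -0.55 to 0.66, adjusted p = 0.888).

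KRT23, a type I keratin of low abundance in the gastrointestinal tract, was a Panc89 transcript. Parental Panc89 libraries held 22.8, 21.4 and 28.0 TPM, whereas the highest of the 9 Panc1 libraries held 0.0278 TPM. KRT20, the intestinal type I keratin, had 0.156 TPM as its highest group mean.

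The keratins of basal and activated epithelium remained below 1 TPM in every Panc1 library, and KRT15 was the exception. KRT17, a type I keratin of activated and basal cells, measured 774, 701 and 815 TPM in parental Panc89, 769, 1176 and 1984 TPM in Panc89 Holoclone and 924, 613 and 769 TPM in Panc89 Paraclone libraries. In Panc1, the highest of the 9 libraries held 0.442 TPM. The log2 differences between the lines were 9.44, 9.87 and 9.38 for parental, Holoclone and Paraclone cells, the largest of all tested keratins in each of these comparisons.

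KRT6A, the main type II keratin of wounded and activated epithelium, measured 159, 271 and 157 TPM in parental, 268, 155 and 159 TPM in Holoclone and 475, 404 and 347 TPM in Paraclone cells of Panc89. The highest Panc1 library held 0.130 TPM, and the line differences were 7.50, 7.56 and 8.66 on the log2 scale. Its type I companion KRT16 remained far lower, at 11.4, 19.6 and 11.3 TPM in parental Panc89 libraries, with 0.339 TPM as the highest Panc1 value. KRT16 pseudogenes held between 4.39% and 36.9% of the summed KRT16 and pseudogene TPM in the Panc89 groups.

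KRT5 and KRT14, the pair of the basal layer, were minor transcripts even in Panc89. KRT5 measured 2.81, 3.37 and 2.91 TPM and KRT14 1.39, 3.61 and 1.84 TPM in the parental libraries. KRT6B and KRT6C reached at most 6.67 and 1.66 TPM in any library, and KRT5 at most 3.37 TPM. KRT15, a type I keratin of basal and progenitor cells, was present in both lines, with 17.9, 20.2 and 16.4 TPM in parental Panc1 and 23.1, 23.8 and 28.6 TPM in parental Panc89 libraries. Its line difference in parental cells was 0.45 (95% interval -0.21 to 1.11, adjusted p = 0.216).

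Among the keratins of stratified and cornified epithelium, 4 of 15 entered the test. KRT13, the type I keratin of mucosal epithelium, measured 14.4, 42.8 and 21.0 TPM in parental Panc89 libraries and at most 0.587 TPM in any Panc1 library. Its partner KRT4 reached 4.84, 1.53 and 4.18 TPM in parental Panc89 libraries. KRT10, the type I keratin of the suprabasal epidermis, was present in both lines, at 26.3, 20.6 and 25.7 TPM in parental Panc1 and 18.6, 18.8 and 20.0 TPM in parental Panc89 libraries, with a difference of -0.32 (95% interval -0.71 to 0.07, adjusted p = 0.140). KRT80, a type II keratin of broad epithelial distribution, differed between the parental lines, with 25.0, 24.4 and 29.2 TPM in parental Panc1 and 12.9, 11.2 and 8.92 TPM in parental Panc89 libraries. Every parental Panc89 value of KRT80 lay below every parental Panc1 value (log2 fold change -1.19, SE 0.26, adjusted p = 8.40e-04). The line difference of KRT80 was -3.02 between the Holoclones (adjusted p = 5.43e-08) and 0.54 between the Paraclones (adjusted p = 0.0878).

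Of the 17 hair keratins, KRT81 and KRT86 were tested. KRT81, a type II keratin of the hair cortex, measured 2.48, 1.13 and 2.40 TPM in parental Panc1 and 547, 817 and 547 TPM in parental Panc89 libraries (log2 fold change 7.74, SE 0.25, adjusted p = 4.65e-13). In Panc89 parental cells it thus was among the 6 most abundant keratins. Its type I partners of the hair shaft were not seen at comparable levels, since no type I hair keratin exceeded a group mean of 0.674 TPM. None of the 9 keratins of the inner root sheath and companion layer, and none of the other 15 hair keratins, entered the test.

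**Figure D2:**
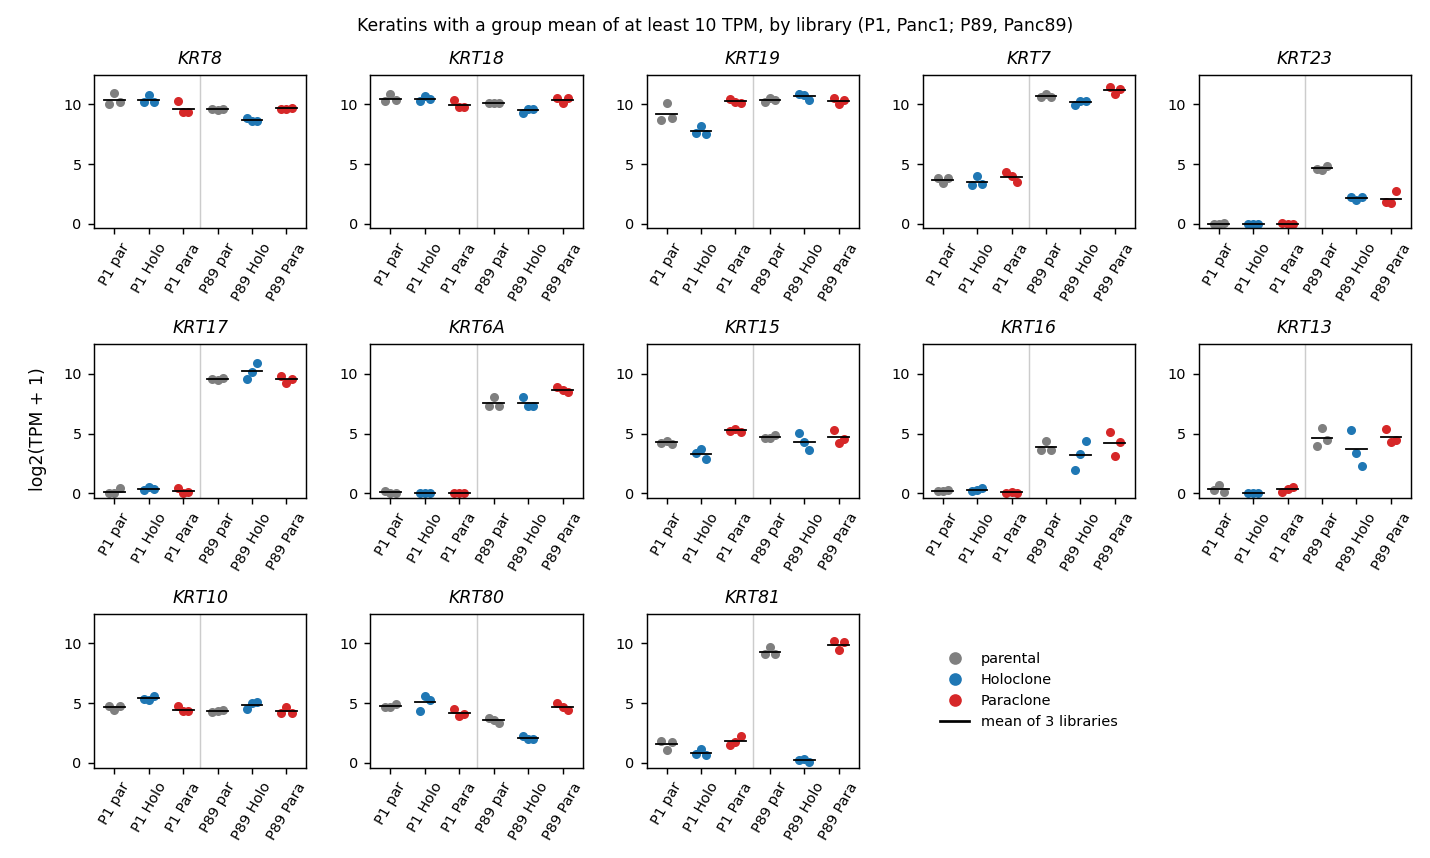
Level of the 13 keratins with a group mean of at least 10 TPM, as log2(TPM + 1) in each library (points) with the mean of 3 libraries (bars), for Panc1 (P1) and Panc89 (P89). KRT7, KRT17, KRT6A and KRT23 separate the lines in all groups, KRT19 and KRT15 are lowest in the Panc1 Holoclone, and KRT81 falls to between 0.08 and 0.36 in the Panc89 Holoclone libraries.

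The second question was how Holoclone and Paraclone cells of the same line differed. In Panc1, 4 of the 19 tested keratins were higher and 3 lower in Holoclone than in Paraclone cells, where 27.4% of all genes were higher and 9.97% lower (37.3% in all). All of these calls fell on the 9 keratins that both lines brought past the filter. The 10 that passed only through Panc89 were below 1 TPM in every Panc1 library, and none was called. The share over all 19 therefore says little about the keratins expressed in Panc1. The median log2 difference was 0.00 for the 19 keratins, -0.40 for the 9 and 0.19 for all genes.

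KRT19 showed the largest change between the Panc1 clones. It measured 198, 285 and 183 TPM in Holoclone and 1389, 1194 and 1090.2 TPM in Paraclone libraries, a 5.51-fold higher mean in the Paraclone (log2 fold change -2.48, SE 0.29, adjusted p = 7.18e-06). KRT15 moved the same way, with 9.28, 12.2 and 6.43 TPM in Holoclone and 37.0, 40.5 and 34.7 TPM in Paraclone libraries (log2 fold change -1.93, SE 0.31, adjusted p = 1.67e-04). For both genes, all Holoclone values lay below all Paraclone values, and the parental values lay between the clone means. KRT15 and KRT19 are direct neighbors in the type I cluster on chromosome 17. KRT81 was low in both clones, at 0.672, 1.24 and 0.574 TPM in Holoclone and 1.82, 2.27 and 3.67 TPM in Paraclone cells, and also lower in the Holoclone (log2 fold change -0.96, SE 0.25, adjusted p = 0.00735).

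Conversely, KRT10 was higher in the Panc1 Holoclone, with 40.4, 37.3 and 47.3 TPM against 26.2, 18.9 and 18.8 TPM in the Paraclone (log2 fold change 0.95, SE 0.18, adjusted p = 8.01e-04). KRT10-AS1, an antisense gene at the KRT10 locus, averaged 34.2 TPM in the Holoclone and 19.9 TPM in the Paraclone, and its part in the KRT10 value was not tested. KRT8 measured 1164, 1786 and 1168 TPM in Holoclone and 1240.1, 644 and 638 TPM in Paraclone libraries, with Paraclone replicate 1 inside the Holoclone range (log2 fold change 0.75, SE 0.26, adjusted p = 0.0326). KRT18 behaved likewise, at 1239.5, 1619 and 1378 and 1309.9, 859.6 and 859 TPM (log2 fold change 0.50, SE 0.19, adjusted p = 0.0473). KRT80 measured 19.6, 47.9 and 37.9 TPM in Holoclone and 21.7, 13.8 and 15.7 TPM in Paraclone libraries (log2 fold change 0.94, SE 0.26, adjusted p = 0.0103). In all, 1 keratin was higher and 4 were lower after rescaling by the median of ratios, and 1 higher and 5 lower with the upper quartile. The calls of KRT8, KRT18 and KRT80 were lost after rescaling by the median of ratios, which brought KRT8 to 0.46 (adjusted p = 0.188), KRT18 to 0.22 (adjusted p = 0.495) and KRT80 to 0.66 (adjusted p = 0.0710). Without Panc1 Paraclone replicate 2, 4 of the 7 keratins (KRT10, KRT15, KRT19 and KRT81) remained called, and KRT8 was at 0.60, KRT18 at 0.40 and KRT80 at 0.80. Leaving out Panc1 Holoclone replicate 2 also ended these calls, with 0.55, 0.40 and 0.68, and leaving out Paraclone replicate 3 ended those of KRT8 (0.59) and KRT18 (0.40). The summed fibroblast markers were higher in the Panc1 Holoclone (6.99 to 10.8 TPM) than in the Paraclone libraries (1.40 to 1.57 TPM). Their most abundant member COL1A1 averaged 7.82 and 1.01 TPM, and their part in these differences was not tested.

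In Panc89, the clones differed mainly in 1 direction. Holoclone cells had higher levels of 1 and lower levels of 10 of the 19 tested keratins, where 22.4% of all genes were higher and 13.3% lower (35.7% in all). The median log2 difference was -0.91 for the keratins and 0.09 for all genes. The lower keratins included 3 of 5 tested simple epithelial keratins, 4 of 8 basal and activated keratins and both hair keratins, and 8 of the 10 were type II. The summed fibroblast markers were 10.2 to 21.7 TPM in the Holoclone and 23.8 to 26.1 TPM in the Paraclone libraries, and their part was not tested.

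KRT81 showed the largest difference of all. The Panc89 Paraclone libraries held 1149, 700.5 and 1087 TPM, and the Holoclone libraries 0.155, 0.279 and 0.0595 TPM (log2 fold change -9.69, SE 0.25, adjusted p = 4.67e-13). All 3 Holoclone values were also below each of the 9 Panc1 values, but the line difference between the Holoclones (-0.64, adjusted p = 0.0368) turned to 0.16 (adjusted p = 0.640) when KRT81 was summed with KRT83, KRT85 and KRT86. KRT81 made up 11.9% of keratin TPM in the Paraclone and 0.00303% in the Holoclone. The 17 hair keratins together held 984 ± 245 TPM in the Paraclone and 2.18 ± 0.298 TPM in the Holoclone. KRT81 alone averaged 979 TPM in the Paraclone, so that this sum restates its difference. KRT86, the nearest copy, measured 2.06, 1.56 and 1.53 TPM in Holoclone and 5.01, 3.20 and 4.18 TPM in Paraclone libraries (log2 fold change -0.91, SE 0.24, adjusted p = 0.00873).

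KRT80, at the edge of the type II cluster, was 7.88-fold higher in the Panc89 Paraclone mean, with 3.66, 2.89 and 3.04 TPM in Holoclone and 31.1, 24.6 and 19.8 TPM in Paraclone libraries (log2 fold change -2.62, SE 0.26, adjusted p = 1.60e-06). KRT7 measured 988, 1223 and 1229.7 TPM in Holoclone and 2773, 1914 and 2506 TPM in Paraclone libraries without overlap (log2 fold change -1.05, SE 0.23, adjusted p = 0.00242). The pair KRT8 and KRT18 fell together: KRT8 was at 463, 391 and 378 TPM in Holoclone and 793, 789 and 843 TPM in Paraclone libraries (log2 fold change -0.98, SE 0.26, adjusted p = 0.00787). KRT18 was at 622, 768 and 804 and 1461, 1139 and 1457 TPM, respectively (log2 fold change -0.89, SE 0.19, adjusted p = 0.00180).

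Of the keratins of activated and basal cells, KRT6A measured 268, 155 and 159 TPM in Panc89 Holoclone and 475, 404 and 347 TPM in Paraclone libraries (log2 fold change -1.10, SE 0.22, adjusted p = 8.81e-04). KRT6B was at 0.663, 0.949 and 1.48 and 5.70, 6.67 and 4.81 TPM, and KRT14 at 1.00, 3.11 and 3.46 and 9.86, 5.89 and 9.04 TPM, with log2 differences of -1.74 (adjusted p = 2.22e-07) and -1.45 (adjusted p = 7.37e-04). KRT6C, at no more than 1.66 TPM, was called at -0.53 (limma, adjusted p = 0.0134), a call lost without Holoclone replicate 2 or 3 or without Paraclone replicate 1. This keratin passed the filter on low values only through the Paraclone, so that its difference was in part built in.

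KRT17 and KRT19, abundant type I keratins, did not pass the threshold. KRT17 measured 769, 1176 and 1984 TPM in Panc89 Holoclone and 924, 613 and 769 TPM in Paraclone libraries, with a wide spread in the Holoclone and a difference of 0.68 (95% interval 0.13 to 1.23, adjusted p = 0.0525). KRT19 was at 1818, 1802 and 1333 and 1484, 1021 and 1335 TPM, with overlapping libraries and a difference of 0.37 (95% interval -0.24 to 0.98, adjusted p = 0.347). KRT10, with 21.2, 30.4 and 32.3 TPM in Holoclone and 16.7, 24.7 and 17.5 TPM in Paraclone libraries, was the single keratin called higher (log2 fold change 0.49, SE 0.18, adjusted p = 0.0493), a call lost when any of 4 of the 6 libraries was left out. KRT13 (-1.03), KRT15 (-0.40) and KRT16 (-0.98) did not pass the threshold. With pseudogene TPM added to the keratins, 1 keratin was called higher and 11 lower. KRT16 pseudogenes held 0.484 ± 0.0751 TPM in the Holoclone and 11.9 ± 9.02 TPM in the Paraclone. KRT13 ranged from 3.999 to 39.3 TPM and KRT16 from 2.91 to 20.0 TPM over the 3 Holoclone libraries.

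**Figure D3:**
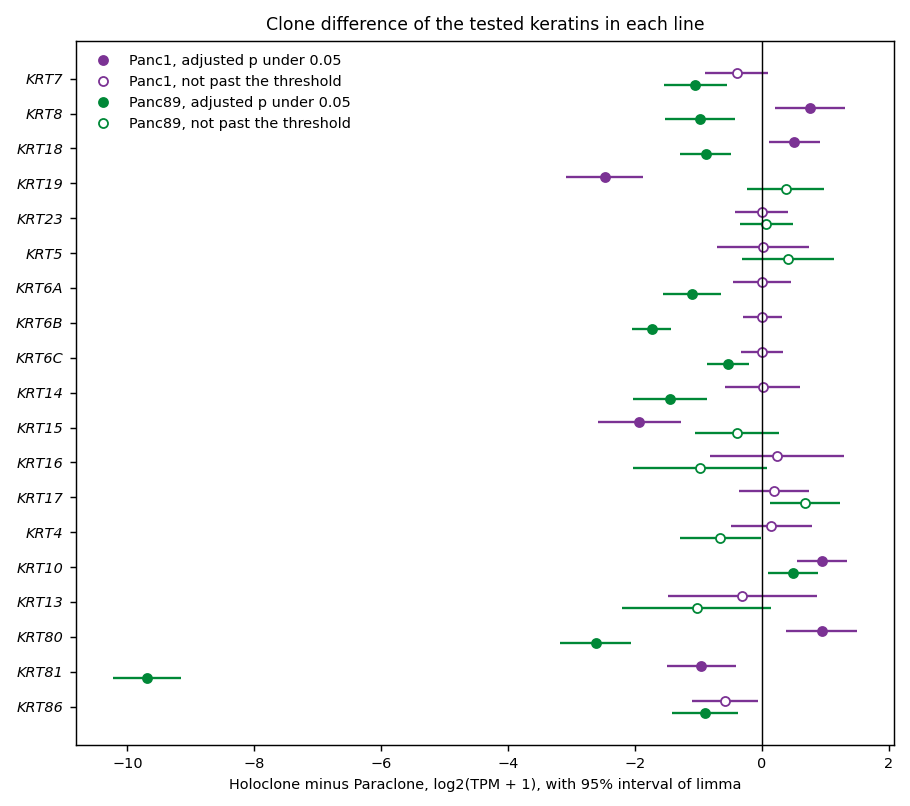
Difference between Holoclone and Paraclone cells (Holoclone minus Paraclone, log2(TPM + 1)) of the 19 tested keratins in Panc1 and Panc89, with the 95% interval of the limma fit, filled points marking an adjusted p under 0.05. KRT8, KRT18 and KRT80 lie to the right of 0 in Panc1 and to the left in Panc89, and KRT81 in Panc89 lies at -9.69, beyond all other keratins.

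Whether the clone difference itself differed between the lines was tested as an interaction. The difference between the lines passed the threshold for 9 keratins, of which 3 had levels in Panc89 alone, where 35.1% of all genes passed. It was more positive in Panc89 for 2 (14.8% of all genes), KRT19 (log2 fold change 2.85, SE 0.40, adjusted p = 6.07e-05) and KRT15 (log2 fold change 1.53, SE 0.44, adjusted p = 0.0130). It was more negative in Panc89 for 7 (20.4% of all genes), namely KRT81 (-8.73), KRT80 (-3.56), KRT6B (-1.74), KRT8 (-1.73), KRT14 (-1.46), KRT18 (-1.39) and KRT6A (-1.10). KRT6A, KRT6B and KRT14 were near 0 TPM in Panc1, so that no clone difference could be seen there and their interaction restates the Panc89 difference. With a pseudocount of 0.1, KRT6A no longer passed (-1.04, adjusted p = 0.0690). KRT80 was called in opposite directions in the 2 lines, as were KRT8 and KRT18, but the Panc1 side of these 3 rested on the calls that rescaling removed. KRT7, with -0.40 in Panc1 and -1.05 in Panc89, gave an interaction of -0.65 (95% interval -1.36 to 0.05, adjusted p = 0.144).

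The third question was which clone departed from its parental line, and parental libraries are shared by these comparisons. In Panc1, 3 keratins differed between Holoclone and parental cells (10.9% of all genes did, 5.87% higher and 5.06% lower), namely KRT10 (0.76), KRT19 (-1.46) and KRT86 (-0.80). The KRT10 call was lost without Holoclone replicate 3 or parental replicate 2, that of KRT86 without any of 5 libraries, and that of KRT19 when the groups were compared alone (adjusted p = 0.1004). Between Panc1 Paraclone and parental cells, 4 differed (28.6% of all genes, 7.31% higher and 21.3% lower), with KRT15 (1.00) and KRT19 (1.02) higher and KRT8 (-0.76) and KRT18 (-0.54) lower in the Paraclone. None of these 4 calls withstood leaving out every library in turn, and without Panc1 parental replicate 2 the KRT8 and KRT18 differences were -0.46 and -0.34. The 10 keratins that passed the filter only through Panc89 gave no call in either comparison with parental Panc1 cells.

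In Panc89, 7 keratins differed between Holoclone and parental cells, all lower in the Holoclone (24.7% of all genes differed, 8.61% were lower). They were KRT81 (-9.07, adjusted p = 1.56e-12), KRT23 (-2.49), KRT4 (-1.65), KRT6B (-1.63), KRT80 (-1.50), KRT8 (-0.90) and KRT18 (-0.60). The KRT8 call was lost when any of 4 libraries was left out and the KRT18 call when any of 5 was. Without Panc89 Holoclone replicate 1, 2 keratins were called higher and 8 lower in the Holoclone. Between Panc89 Paraclone and parental cells, 7 differed (19.4% of all genes, 9.37% higher and 10% lower), with KRT14 (1.53), KRT80 (1.12), KRT6A (1.10) and KRT6C (0.65) higher and KRT23 (-2.56), KRT5 (-1.26) and KRT4 (-0.9959) lower in the Paraclone, the last 2 depending on single libraries. KRT81 did not pass in this comparison (limma, 0.61, 95% interval 0.07 to 1.15, adjusted p = 0.109). KRT4 and KRT5 passed the filter on low values only through parental Panc89 cells, and KRT6C only through the Panc89 Paraclone. Their calls against parental cells were thus in part built in.

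KRT23 was the single tested keratin whose 3 parental Panc89 values all lay above every clone value. It fell from 22.8, 21.4 and 28.0 TPM in parental to 3.58, 3.02 and 3.76 TPM in Holoclone and 2.47, 2.36 and 5.53 TPM in Paraclone libraries, a parental mean 6.97-fold and 6.97-fold above those of the clones. In Panc1, no keratin showed parental libraries wholly above or wholly below those of both clones. The share of all genes with such a separation was not determined, so that these counts cannot be set against it.

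Type II keratins and KRT18 lie in 1 cluster on chromosome 12, and the other 28 type I keratins on chromosome 17. The expressed keratins did not form 1 block in either cluster. KRT81 and KRT86 are neighbors of KRT83, whose highest group mean was 0.331 TPM, and of KRT7, whose lowest Panc89 library held 988 TPM. The clone difference in Panc89 was largest at KRT81 (-9.69), while KRT86 (-0.91), whose intron holds it, KRT7 (-1.05) next to it and KRT80 (-2.62) at the end of the cluster had smaller differences in the same direction. In the type I cluster, KRT13, KRT15 and KRT19 follow each other. KRT9, whose highest group mean was 0.308 TPM, lies between them and the group of KRT14, KRT16 and KRT17.

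**Figure D4:**
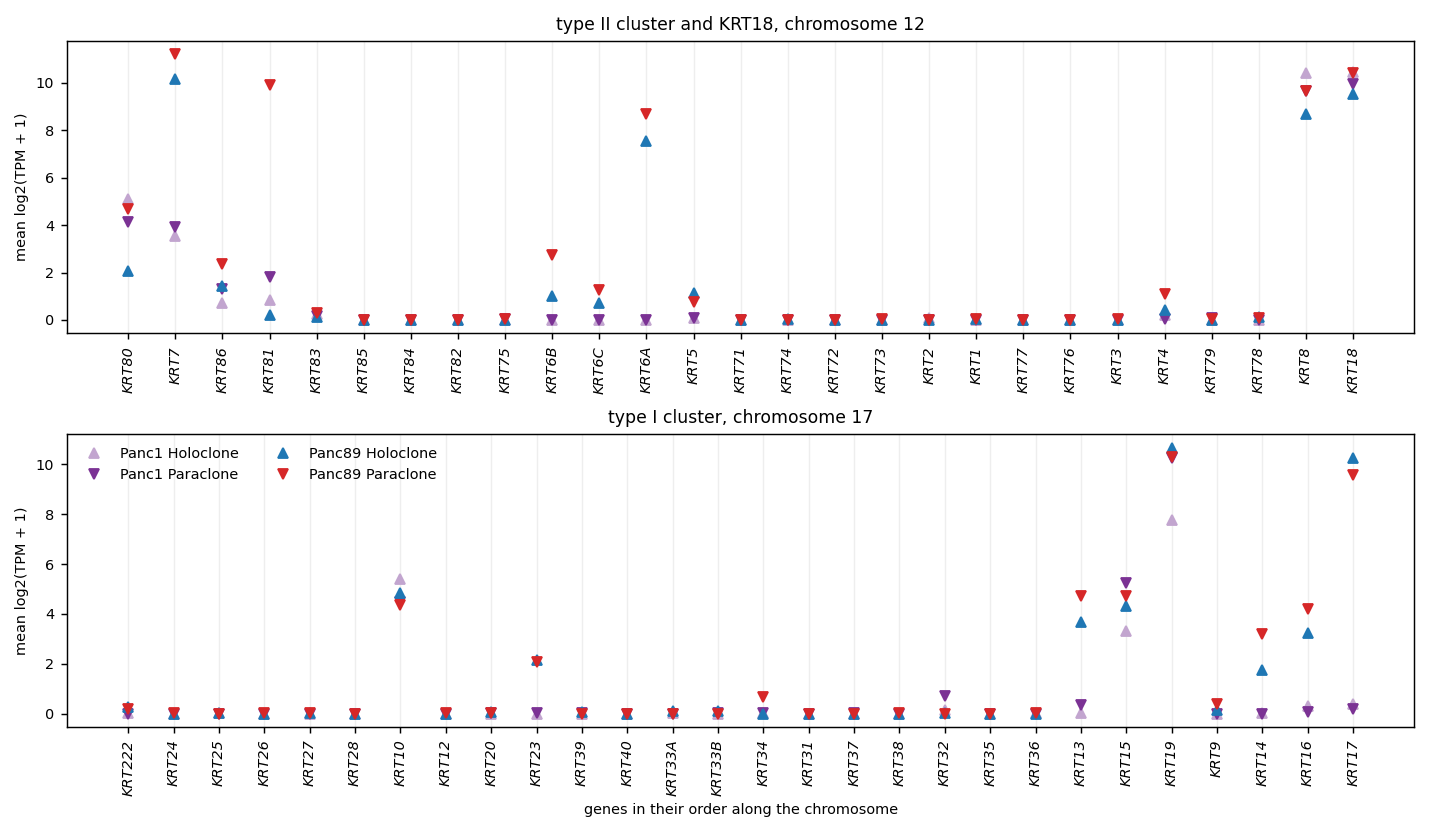
Mean log2(TPM + 1) of 3 libraries for Holoclone and Paraclone cells of both lines, with the keratin genes in their order along chromosome 12 and chromosome 17, without distances to scale. Most genes stay near 0, and the gap between Panc89 Holoclone and Paraclone cells at KRT81 (-9.69) is not matched by KRT86 or KRT83.

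Genes that anchor or accompany keratin filaments were read from the same fit, as were transcription factors known from epithelial differentiation. Of 17 genes for filament partners, 16 were tested, and 12 were higher and 3 (CD151, DST and TCHP) lower in parental Panc89 than in parental Panc1 cells (27.5% and 38.5% of all genes). EPPK1 remained below 1 TPM in every Panc1 library. COL17A1 held at most 0.206, 0.0899 and 1.02 TPM in parental, Holoclone and Paraclone Panc1 libraries. Both passed the filter on low values only through Panc89, so that their line differences were built in. Desmosomal DSP, which ties keratins to cell junctions, averaged 6.26 and 57.5 TPM, respectively (3.01), and the hemidesmosome genes ITGB4 and COL17A1 differed by 5.16 and 5.82. PLEC, which links keratins to hemidesmosomes, gave 0.32 (adjusted p = 0.0713). Between the Panc1 clones, 6 partners were higher and 6 lower in the Holoclone (27.4% and 9.97% of all genes), among them DSP (3.75) and ITGB4 (-2.12). Between the Panc89 clones, 3 were higher in the Holoclone, COL17A1 (1.89), DST (1.70) and ITGA6 (0.84), and 3 lower, EPPK1 (-0.97), DSP (-0.76) and EVPL (-0.76), against 22.4% and 13.3% of all genes.

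Of 11 transcription factors, 8 were higher and 2 (GRHL3 and TFAP2A) lower in parental Panc89 cells (27.5% and 38.5% of all genes). Of the 8, TP63, GRHL2, EHF and OVOL1 remained below 1 TPM in every Panc1 library, so that their difference was built in by the filter. TP63, a regulator of basal epithelial genes, measured 33.1 to 49.0 TPM in parental Panc89 libraries and at most 0.106 TPM in parental Panc1 libraries (5.37). Between the Panc89 clones, 5 of the 11 (EHF, GRHL2, GRHL3, KLF4 and TP63) were higher and 2 (OVOL1 and TFAP2A) lower in the Holoclone (22.4% and 13.3% of all genes). TP63 was at 127 to 154 TPM in Holoclone and 10.4 to 20.4 TPM in Paraclone libraries (log2 fold change 3.09, SE 0.20, adjusted p = 1.39e-08). Between the Panc1 clones, GRHL1 was higher (0.69) in the Holoclone and 3 factors were lower, namely ELF3 (-3.57), KLF4 (-1.77) and KLF5 (-1.36). Of all genes, 27.4% were higher and 9.97% lower there. The share of called factors was 36.4%, and that of all genes 37.3%. TP63, GRHL2, EHF and OVOL1, below 1 TPM in every Panc1 library, were among the factors not called. The share therefore says little about the factors expressed in Panc1.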

How the data were processed

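RNA of 18 libraries (2 cell lines, 3 cell variants, 3 libraries each) was sequenced as stranded poly(A) libraries. The authors quantified transcripts with kallisto 0.46.1 against Ensembl transcripts of GRCh38, summarized them to genes as scaled TPM, and deposited log2(TPM + 1) values per gene symbol. They tested their own comparisons with DESeq2, and those results were not used here. The deposited table holds no read counts, so no interval based on depth can be given.

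The log2 values were tested as deposited with limma 3.58.1 (limma-trend) in R 4.3.3, with 6 group means fitted over all 18 libraries. The 16093 genes that reached 1 TPM in 3 libraries or more entered, p-values were adjusted by Benjamini-Hochberg over all of them, and an adjusted p under 0.05 was called. The test was tried on simulated data first. TPM was recovered as a power of 2 minus the pseudocount of 1. Tables and figures were made with Python 3.11.15, pandas 2.3.3 and matplotlib 3.10.9. Gene positions come from GENCODE release 44, and sequences from the GRCh38 reference.

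Keratins with a group mean of at least 1 TPM in any group are named, and those of at least 10 TPM are given by library. The keratins and all gene lists were chosen with earlier results of these data known. Alternatives were a pseudocount of 0.1, other filters, other scalings, fits of the compared groups alone, a replicate block, a fold change threshold, summing with relatives or pseudogenes, and leaving out each library.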

Additional observations from a re-analysis of the deposited data

Results flagged for a closer look

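For 9 keratins, 3 of which had levels in Panc89 alone, the difference between Holoclone and Paraclone cells was not the same in Panc89 as in Panc1, by a limma test of the difference itself (Holoclone minus Paraclone, Panc89 minus Panc1, log2 scale). The values were 2.85 for KRT19 (adjusted p = 6.07e-05), 1.53 for KRT15 (adjusted p = 0.0130) and -8.73 for KRT81 (adjusted p = 1.72e-10). KRT80 gave -3.56 (adjusted p = 2.76e-06), KRT8 -1.73 (adjusted p = 0.00179) and KRT18 -1.39 (adjusted p = 0.000842). KRT6A (-1.10, adjusted p = 0.0109), KRT6B (-1.74, adjusted p = 9.57e-06) and KRT14 (-1.46, adjusted p = 0.00869) were near 0 TPM in both Panc1 clones, so that their values restate the Panc89 difference. Each line contributed 1 clone of each kind.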

How the results depend on the processing

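Of 93 keratin calls in 10 comparisons, 23 were lost when a library was left out or under another setting except a fold change threshold. The other 70 were not lost where they were tested, but 10 of them were not tested under a filter of 5 TPM. Requiring an absolute log2 fold change over 1 left 2 keratins for Panc1 Holoclone against Paraclone, 6 for Panc89 Holoclone against Paraclone, 1 for Panc1 Holoclone against parental and 2 for Panc1 Paraclone against parental. Fitting the compared groups alone gave 1 and 2 in the last comparisons. For Panc1 Paraclone against parental, no filter left 1 keratin, and median-of-ratios and upper quartile scaling each left 2, both higher. These scalings moved the median of all genes there from -0.17 to 0.00 and -0.01, and for Panc1 Holoclone against Paraclone from 0.19 to 0.00. For Panc1 Holoclone against parental, they gave 1 higher and 1 lower, and 1 higher and 3 lower. A filter of 5 TPM left 4 for Panc89 Paraclone against parental. Upper quartile scaling brought the keratin sum of parental Panc89 cells to 7229.7 TPM. KRT81 between the Holoclones turned from -0.64 to 0.16 (limma, adjusted p = 0.640) when summed with KRT83, KRT85 and KRT86. The causes of these changes were not tested. For the alternative settings, the share of all genes called was not determined, so that changes in keratin counts cannot be set against it.

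Leaving out 1 library gave 4 to 8 keratins for Panc1 Holoclone against Paraclone, with 4 without Paraclone replicate 2. Panc1 Holoclone against parental gave 1 to 3, with 1 without Holoclone replicate 3. Panc1 Paraclone against parental gave 1 to 3, with 1 without parental replicate 3 or Paraclone replicate 2, and 2 without parental replicate 1 or 2 or Paraclone replicate 3. Leaving out Panc89 Holoclone replicate 1 gave 2 higher and 12 lower for Panc89 Holoclone against Paraclone. Against parental Panc89 cells, it gave 2 higher and 8 lower in the Holoclone. Same-numbered libraries did not deviate together (r from -0.32 to 0.28 over 45 pairs, 3 of 18 libraries closest to their own number). With the replicate number as a block, 15, 17 and 12 keratins were called between the lines for parental, Holoclone and Paraclone cells, 6 and 10 between the clones of Panc1 and Panc89, and 9 for the difference between the lines. Against parental cells, the block gave 2 and 3 in Panc1 and 7 and 7 in Panc89, for Holoclone and Paraclone. Without read counts, low keratins cannot be told from undetected ones.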
